A study of Mus musculus with 12 samples.

Results

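The genes examined here were 8 protein genes of mouse mitochondrial DNA and 2 pseudogenes in a stretch of chromosome 1 that is nearly letter for letter a copy of part of that DNA. They were 10 of 55450 annotated genes (GENCODE M21), and they were chosen by the regions listed on them in the very lists described here, so that each of them held a region is a description and not a finding. The mitochondrial members were mt-Nd1, mt-Nd2, mt-Co1, mt-Co2, mt-Atp6, mt-Co3, mt-Nd4 and mt-Cytb, and the pseudogenes were Gm28661 and Gm28437. Of the genes outside this choice, mt-Atp8 on mitochondrial DNA and Gm10925 and Gm29216 on the copy also held a region in all 4 lists, whereas mt-Nd4l and mt-Nd5 did so in 2 lists, mt-Nd6 in 1 and mt-Nd3 in none.

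The study used chromatin immunoprecipitation sequencing (ChIP-Seq) to ask where FOXP3, the transcription factor that defines regulatory T cells (Tregs), and Ku70, a DNA end-binding repair protein encoded by Xrcc6, occupy the genome. All mice were on a C57BL/6J background and carried Foxp3 Yfp-Cre, which drives Cre from the Foxp3 locus. The WT Tregs came from Foxp3 Yfp-Cre mice, and the KO Tregs from Xrcc6 fl/fl Foxp3 Yfp-Cre mice, in which Ku70 is deleted in cells that express Foxp3. FOXP3 was precipitated from WT and KO Tregs. Ku70 was precipitated from CD4+CD25+YFP+ Tregs and from CD4+CD25-YFP- conventional T cells (Tconv) of Foxp3 Yfp-Cre mice, and the labels give no age. Each of the 4 sets had 2 replicates and 1 input, and was represented by 1 list of regions called on the pooled replicates. Hence no spread between replicates could be given and no difference between lists was tested. The lists hold no expression values or read counts, so that neither the cell identity nor the loss of Ku70 could be checked in them. Inside the lists the regions are named with iTreg, Teff or CKO in place of Treg, Tconv or KO, as the samples are labelled, and the labels give each sample its own catalogue number for the antibody. Both points remained unresolved.

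Mitochondrial DNA is a small circle that each cell holds in many copies, outside the nucleus and without nucleosomes. It encodes protein subunits of the respiratory chain and of ATP synthase, together with the rRNAs and tRNAs needed to translate them, and the tRNA genes lie between the protein genes like punctuation. Fragments of it have been inserted into nuclear chromosomes during evolution, and a read from such a nuclear copy cannot be placed with certainty when its letters also occur on mitochondrial DNA.

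The 16299 bp of mitochondrial DNA carry 13 protein genes, 22 tRNA genes and 2 rRNA genes in the annotation, and the 877 bases after the last gene (chrM:15423-16299) form the noncoding control region, which holds the starts of transcription. The longest chromosome 1 match lay at chr1:24611535-24616188, on the minus strand, and aligned to mitochondrial positions 6390 to 11042. It holds 7 annotated pseudogenes, each matching a protein gene: Gm29216 the end of mt-Co1, Gm28661 mt-Co2, Gm10925 mt-Atp6, Gm28437 mt-Co3, Gm28438 mt-Nd3, Gm10222 mt-Nd4l and Gm28439 the first 63.6% of mt-Nd4. The other members mt-Nd1, mt-Nd2 and mt-Cytb have no counterpart in it.

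The sequences that separate the copy from its source are few, and they are shown because all the other aligned bases are identical. Substitutions are written as the mitochondrial base, its mitochondrial position and the copy's base. T9461C lies at the start of mt-Nd3 (Gm28438 in the copy), A6393T lies in mt-Co1 (Gm29216) next to the end of the aligned stretch, and the single gap is an extra A in a run of A in mt-Tr, of 8 bases on mitochondrial DNA and 9 in the copy. Each sequence below is read along the strand shown of mm10 (GRCm38), from RefSeq, with the substituted base or the run in capitals; the letters before the capital in the second A6393T sequence lie mostly outside the copy.
mt-Nd3, chrM:9441-9481, plus strand: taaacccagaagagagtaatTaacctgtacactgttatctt
Gm28438, chr1:24613097-24613137, minus strand: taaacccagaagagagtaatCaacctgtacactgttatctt
mt-Co1, chrM:6373-6413, plus strand: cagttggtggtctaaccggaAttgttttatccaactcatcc
Gm29216, chr1:24616165-24616205, minus strand: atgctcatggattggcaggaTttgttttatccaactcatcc
mt-Tr, chrM:9801-9848, plus strand: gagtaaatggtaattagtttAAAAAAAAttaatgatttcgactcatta
copy of mt-Tr, chr1:24612729-24612777, minus strand: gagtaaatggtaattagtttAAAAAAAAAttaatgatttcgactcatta

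None of these differences lies in Gm28661 or Gm28437. The reads were 150 bp long, and 4209 of the 4505 windows of 150 bases in the copy (93.4%) also occurred, letter for letter, on mitochondrial DNA. Reads were paired, so a window describes a single read and not its pair.

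The DNA around the strongest summits, here those of highest fold enrichment, is shown next, 30 bases to either side, with the summit base in capitals. On mitochondrial DNA the strongest summit of every list lay in mt-Co1, the catalytic core of cytochrome c oxidase. The Treg Ku70 summit shown lies apart from the other 3, and the Treg Ku70 summit with the highest −log10 p, at position 6436, lay among them.
WT FOXP3, chrM:6570-6630: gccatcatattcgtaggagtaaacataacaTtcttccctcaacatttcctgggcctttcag
KO FOXP3, chrM:6306-6366: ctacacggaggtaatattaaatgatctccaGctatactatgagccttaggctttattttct
Treg Ku70, chrM:5600-5660: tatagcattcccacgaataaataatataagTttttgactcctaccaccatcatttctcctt
Tconv Ku70, chrM:6346-6406: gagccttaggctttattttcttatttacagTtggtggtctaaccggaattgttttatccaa
In the copy the strongest summit lay in Gm28661 in the WT FOXP3, KO FOXP3 and Tconv Ku70 lists and in Gm28437 in the Treg Ku70 list, where another summit of the same gene had the same fold enrichment. These are read on the minus strand of chromosome 1, the strand of the pseudogenes.
WT FOXP3, chr1:24615272-24615332: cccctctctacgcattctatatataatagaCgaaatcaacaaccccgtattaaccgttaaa
KO FOXP3, chr1:24615392-24615452: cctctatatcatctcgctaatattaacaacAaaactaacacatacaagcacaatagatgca
Treg Ku70, chr1:24613624-24613684: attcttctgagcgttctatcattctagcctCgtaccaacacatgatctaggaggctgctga
Tconv Ku70, chr1:24615252-24615312: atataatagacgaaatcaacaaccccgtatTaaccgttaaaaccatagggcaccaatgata
All 4 of the copy's sequences also occur on mitochondrial DNA. Of the mt-Co1 sequences, that of the WT FOXP3 list also occurs in the copy and the other 3 do not.

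Listed regions took up a large share of mitochondrial DNA in every list and almost none of the nuclear genome. They covered 42.1% of mitochondrial bases in the WT FOXP3 list, 54.0% in the KO FOXP3 list, 72.8% in the Treg Ku70 list and 36.5% in the Tconv Ku70 list. The corresponding nuclear shares, outside the copy, were 0.0113%, 0.00349%, 0.0356% and 0.0123%. All 8 mitochondrial members held a region in each list, against 1.32% of all annotated genes in the WT FOXP3 list, 0.512% in the KO FOXP3 list, 4.01% in the Treg Ku70 list and 1.54% in the Tconv Ku70 list, and since holding a region chose the members, nothing is read from that contrast. Mitochondrial regions were also wide, with medians of 736.5, 890, 1566.5 and 563.5 bp in the same order of lists, against 168, 167, 170 and 182 bp for other nuclear regions. They numbered 8, 9, 8 and 8, and carried 21, 32, 36 and 19 summits. A cell's many mitochondrial genomes also enter its input, and the level of the input over mitochondrial DNA was not analysed here.

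Few regions of any list passed a stricter threshold, and most of those that did belonged to mitochondrial DNA or its copy. A −log10 q of at least 2 was reached by 0.114% of WT FOXP3 regions, 0.735% of KO FOXP3 regions, 0.189% of Treg Ku70 regions and 0.112% of Tconv Ku70 regions. In the WT FOXP3 list these were 2 regions, at mt-Co1 and mt-Co2. In the KO FOXP3 list they were 4, at mt-Co1, mt-Cytb, mt-Nd4 with mt-Nd4l, and Gm28661 with Gm29216. Of 10 such Treg Ku70 regions, 5 were mitochondrial and 3 lay in the copy, and of 2 in the Tconv Ku70 list 1 was at mt-Co1. The remaining ones were an Mdga2 region, present in both Ku70 lists, and a Treg Ku70 region overlapping Kpna1. The q-value thus set apart 2, 4, 8 and 1 of the 10 members, while the other members were listed at the authors' looser threshold only.

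**Figure D1:**
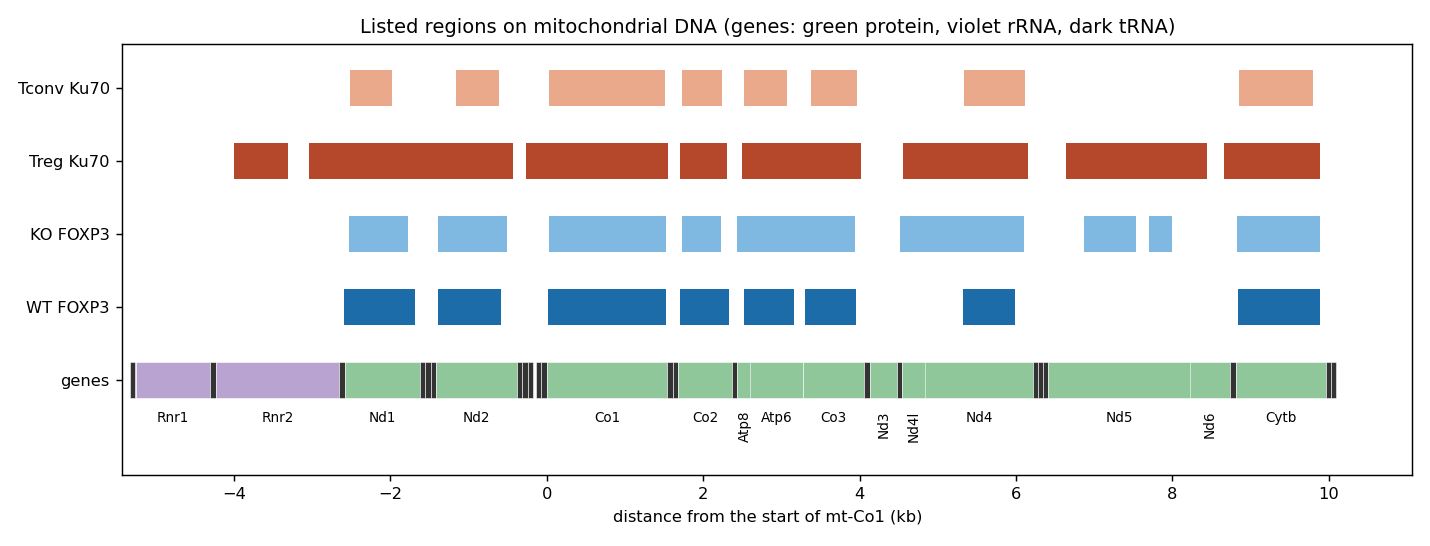
Listed regions (bars) on mitochondrial DNA in the 4 lists, over the annotated genes (green protein, violet rRNA, dark tRNA), with the distance from the start of mt-Co1 in kb on the horizontal axis. Most covered bases lie in protein genes, the Treg Ku70 regions also run through several tRNA genes and into mt-Rnr2, and no list covers mt-Rnr1, mt-Nd3 or the control region at the right.

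Protein genes were covered more than tRNA genes in each list. They were covered over 60.4% of their bases in the WT FOXP3 list, 77.3% in the KO FOXP3 list, 89.7% in the Treg Ku70 list and 52.5% in the Tconv Ku70 list. For tRNA genes, the adaptors of translation, the shares were 0.805%, 2.82%, 39.6% and 0%. The rRNA genes, which encode the RNA of the mitochondrial ribosome, were covered over 42.3% of their bases in the Treg Ku70 list, all of it in mt-Rnr2, and held no region in the other 3 lists. The control region held none in any list. The 5785 bases covered in all 4 lists (35.5% of the circle) lay 100% in protein genes, whereas of the 4288 bases covered in no list 25.1% did. Protein genes hold 11338 of the 16299 mitochondrial bases. The 13 protein genes include the 8 members, which were chosen by their regions in these lists. Of the other 5, 1 held a region in the WT FOXP3 list, 3 in KO FOXP3, 4 in Treg Ku70 and 1 in Tconv Ku70. In the WT FOXP3 and Tconv Ku70 lists this was mt-Atp8, in a region shared with mt-Atp6.

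The lists differed in extent, and the smaller coverages lay mostly within the larger ones. Every one of the 5947 mitochondrial bases covered in the Tconv Ku70 list was also covered in the Treg Ku70 list, of whose 11872 bases they made up 50.1%. Of the 6857 WT FOXP3 bases, 95.8% were covered in the KO FOXP3 list and 99.5% in the Treg Ku70 list, and of the 8803 KO FOXP3 bases 74.6% were covered in the WT FOXP3 list. These shares are to be read against the share of all mitochondrial bases in the containing list, 72.8% in Treg Ku70, 54.0% in KO FOXP3 and 42.1% in WT FOXP3. The KO FOXP3 list, though the shortest with 544 regions, covered more of mitochondrial DNA than the WT FOXP3 list with 1751. The sets were precipitated and sequenced as separate libraries whose depth is not in the lists, and its part in these extents was not tested.

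Region edges mostly lay inside protein genes, some close to the gene's end and others far from it. This is to be read against the 11338 of 16299 mitochondrial bases that protein genes hold. Regions that touched a single protein gene numbered 7 in the WT FOXP3 list, 7 in KO FOXP3, 2 in Treg Ku70 and 7 in Tconv Ku70. In the WT FOXP3 list 7 of the 8 mitochondrial regions began and ended inside protein genes, in the KO FOXP3 list 7 of 9 and in the Tconv Ku70 list 8 of 8, and in the Treg Ku70 list 5 of the 7 that touch a protein gene did. Of the edges of these regions, 8 of 16 lay within 50 bases of the end of the protein gene they touched in the WT FOXP3 list, 8 of 18 in the KO FOXP3 list, 4 of 14 in the Treg Ku70 list and 4 of 16 in the Tconv Ku70 list, and 3, 4, 5 and 5 lay more than 200 bases from it. At mt-Co1 (chrM:5328-6872) the WT FOXP3 region began 16 bases after the start of the gene and ended 22 bases before its end. The KO FOXP3 region began 24 bases inside and ended 16 bases before the end, and the Tconv Ku70 region lay 23 and 27 bases inside. The Treg Ku70 region alone overran the gene, by 270 bases at the start, over the tRNA genes mt-Ty, mt-Tc and mt-Tn and part of mt-Ta, and by 9 bases at the end.

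The break after mt-Co1 recurred in all 4 lists. It measured 182 bases in the WT FOXP3 list, 197 in the KO FOXP3 list, 152 in the Treg Ku70 list and 215 in the Tconv Ku70 list, and it held mt-Td and mt-Ts1, which lies on the opposite strand, except that the Treg Ku70 region reached over 17.4% of mt-Ts1. The stretch is shown with both tRNA genes in capitals, between the end of mt-Co1 and the beginning of mt-Co2, on the plus strand.
chrM:6840-7041: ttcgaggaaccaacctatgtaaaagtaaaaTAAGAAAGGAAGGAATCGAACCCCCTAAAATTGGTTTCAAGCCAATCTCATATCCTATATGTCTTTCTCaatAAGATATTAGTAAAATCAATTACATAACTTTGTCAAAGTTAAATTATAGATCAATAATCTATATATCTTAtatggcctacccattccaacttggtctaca
The matching stretch of the copy, chr1:24615537-24615738, has the same letters throughout. There the break lay between Gm28661 and Gm29216 and measured 208 bases in the WT FOXP3 list, 161 in the Treg Ku70 list and 187 in the Tconv Ku70 list. In the KO FOXP3 list the copy had no break, and 1 region ran across both pseudogenes.

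**Figure D2:**
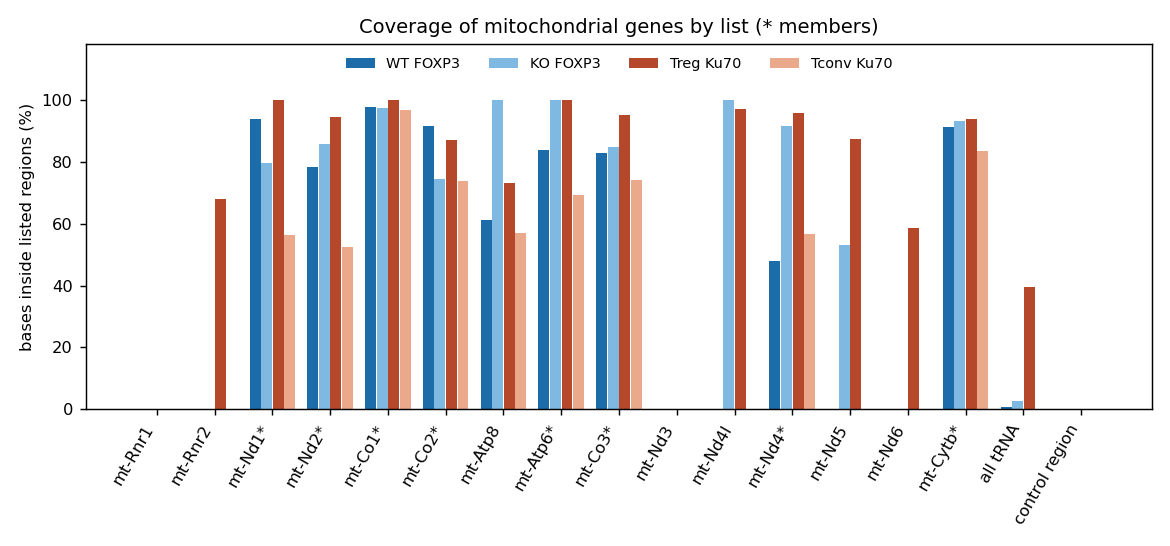
Percent of the bases of each mitochondrial gene inside listed regions, with 1 bar per list (stars mark members; tRNA genes are pooled). mt-Co1 stands at 96.8 to 100% in all 4 lists, the Tconv Ku70 bars are the lowest at 7 of the 8 members, and mt-Rnr1, mt-Nd3 and the control region are at 0.

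Of the subunits of complex IV, cytochrome c oxidase, mt-Co1 was covered nearly whole in every list. For mt-Co1 coverage for FOXP3 was 97.5% in WT and 97.4% in KO Tregs and for Ku70 100% in Tregs and 96.8% in Tconv, and in this order its highest fold enrichment, the ratio of the signal at a summit to its estimated background, was 6.49, 8.46, 6.31 and 7.61. It ranked above the other 7 mitochondrial members by fold in each list. By the fold of its region it stood at place 1 of all regions in the WT FOXP3, KO FOXP3 and Tconv Ku70 lists and at place 2 of 5295 in the Treg Ku70 list, behind Gm28437. The summits of highest fold lay 1273, 1009, 303 and 1049 bases from the start of the gene, a range of 970 bases, or 62.8% of its length. Ranked by −log10 p, the Treg Ku70 summit lay at 1109 bases instead (fold 5.78, −log10 p 21.8, against 18.7 at the summit of highest fold), and the range over the 4 lists was 264 bases.

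For mt-Co2, which carries the copper site that accepts electrons from cytochrome c, coverage was 91.5%, 74.3%, 87.0% and 73.8% in the same order, and the highest fold was 4.49, 4.12, 4.21 and 4.77. These folds lay closer together than those of any other member. For mt-Co3, a structural subunit of the same complex, coverage was 82.7%, 84.7%, 95.03% and 74.2%. Its highest fold was 3.37, 4.62, 4.14 and 4.06, lowest in the WT FOXP3 list. The 4 strongest summits of mt-Co3 fell within 58 bases of each other, 280 to 338 bases from the start of the gene, which is 7.40% of its length and the narrowest range among the members.

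Complex I, NADH dehydrogenase, has 7 subunits encoded here, and its 3 members varied more in coverage. For mt-Nd4 coverage was 47.9% in the WT FOXP3 list, 91.6% in the KO FOXP3 list, 95.9% in the Treg Ku70 list and 56.7% in the Tconv Ku70 list, with highest folds of 3.29, 5.46, 4.35 and 3.88. The WT FOXP3 and Tconv Ku70 regions began 488 and 502 bases inside the gene, and the WT FOXP3 region also ended 230 bases before its end. All strongest summits of mt-Nd4 lay 873 to 992 bases from its start. For mt-Nd1 coverage was 93.7%, 79.6%, 100% and 56.4%, and its highest fold was 3.14, 2.75, 3.85 and 3.17. For mt-Nd2 coverage was 78.3%, 85.7%, 94.5% and 52.3%, and its highest fold was 3.53, 4.15, 3.23 and 2.63. At mt-Nd1 and mt-Nd2 the −log10 q was 0 in all lists but Treg Ku70, where it was 1.75 and 0.687.

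The remaining complex I genes, which were not members, were covered unevenly. mt-Nd4l was covered over 100% of its bases in the KO FOXP3 list and 97.0% in the Treg Ku70 list and held no region in the others. mt-Nd5 was covered over 53.2% and 87.3% in those lists, with folds of 2.46 and 3.36. The single light-strand protein gene, mt-Nd6, was covered over 58.6% in the Treg Ku70 list only. mt-Nd3 lay outside every region, in a stretch of 491 bases between mt-Co3 and mt-Nd4l that no list covered.

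For mt-Cytb, the cytochrome b subunit of complex III, coverage for FOXP3 was 91.1% in WT and 93.3% in KO Tregs and for Ku70 93.7% in Tregs and 83.5% in Tconv. Its highest fold was 3.83, 6.32, 5.37 and 3.88, higher in the KO FOXP3 and Treg Ku70 lists than in the other 2. In those lists and in the Tconv Ku70 list the summit of highest fold lay 131 to 139 bases from the start of the gene, and in the WT FOXP3 list 302 bases from it. For mt-Atp6, a proton channel subunit of ATP synthase (complex V), coverage was 83.7%, 100%, 100% and 69.3%, and the highest fold was 3.03, 3.86, 4.57 and 2.99. The short mt-Atp8 that overlaps its start was covered over 61.3%, 100%, 73.0% and 56.9%.

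**Figure D3:**
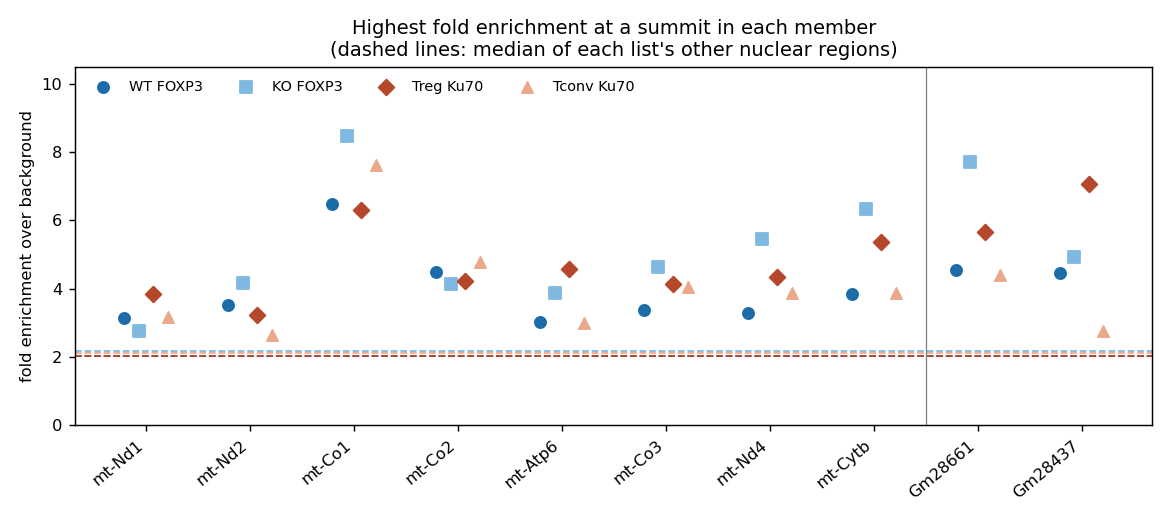
Highest fold enrichment at a summit inside each member, with 1 point per list and no error bars because each list pools its replicates; dashed lines are the medians of the other nuclear regions (2.02 to 2.16). mt-Co1 is the highest mitochondrial member in each list, and the largest gap between lists at a pseudogene is at Gm28437, from 2.74 in Tconv Ku70 to 7.06 in Treg Ku70.

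Between WT and KO Tregs, the highest FOXP3 fold was higher in the KO list at 8 of the 10 members and lower at 2, mt-Nd1 and mt-Co2. The median fold of the other nuclear regions was also higher in KO, at 2.16 against 2.02. Coverage was higher in KO at 7 members and lower at 3, mt-Nd1, mt-Co2 and mt-Co1, where it was 1507 bases in WT and 1505 in KO. The widest gaps in fold were at Gm28661, with 4.54 in WT and 7.71 in KO, and at mt-Cytb, with 3.83 and 6.32. For Ku70, the fold was higher in Tregs than in Tconv at 8 members and lower at mt-Co1 and mt-Co2, and coverage was higher in Tregs at 10 of 10. The widest gap was at Gm28437, with 7.06 in Tregs and 2.74 in Tconv. For Ku70 the median fold of the other nuclear regions was 2.04 in Tregs and 2.12 in Tconv. Coverage of nuclear bases outside the copy was also higher for Ku70 in Tregs, at 0.0356% against 0.0123% in Tconv. For FOXP3 that nuclear coverage was lower in KO, at 0.00349% against 0.0113% in WT. Members share their libraries and their input, and the pseudogenes share the letters of mt-Co2 and mt-Co3, so these counts are not independent observations. With 1 pooled list per set, neither contrast could be set against the error between replicates.

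The pseudogene Gm28661 (chr1:24614885-24615565) was covered over 87.7%, 91.8%, 87.7% and 77.7% of its bases in the lists of WT FOXP3, KO FOXP3, then Treg Ku70 and Tconv Ku70. Its highest fold was 4.54, 7.71, 5.66 and 4.41, beside 4.49, 4.12, 4.21 and 4.77 over the matching bases of mt-Co2. Thus the copy was above its source in 3 lists and below it in Tconv Ku70. Gm28437 (chr1:24613189-24613971) was covered over 89.9%, 92.3%, 98.2% and 83.7%. Its highest fold was 4.46, 4.91, 7.06 and 2.74, beside 3.37, 4.62, 4.14 and 4.06 over the matching bases of mt-Co3, with the same direction in each list as for Gm28661. Over the pairs of a pseudogene and its source that both held a summit, the copy had the higher fold in 3 of 5, 3 of 5, 4 of 6 and 1 of 3.

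The other pseudogenes of the copy repeated the pattern of their sources in part. Gm10925 (mt-Atp6) was covered over 77.6%, 100%, 100% and 71.2%, and Gm29216 (the end of mt-Co1) over 84.8%, 95.3%, 93.3% and 77.8%. Gm28438 held no region in any list, as was the case for its source mt-Nd3. At the mt-Nd4 end the copy and its source parted: Gm28439 was covered over 32.2%, 43.3%, 62.2% and 0%, whereas the matching part of mt-Nd4 was covered over 44.3%, 100%, 100% and 42.7%. A WT FOXP3 region also ran into Gm10222, over 28.2% of it, where mt-Nd4l held none.

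**Figure D4:**
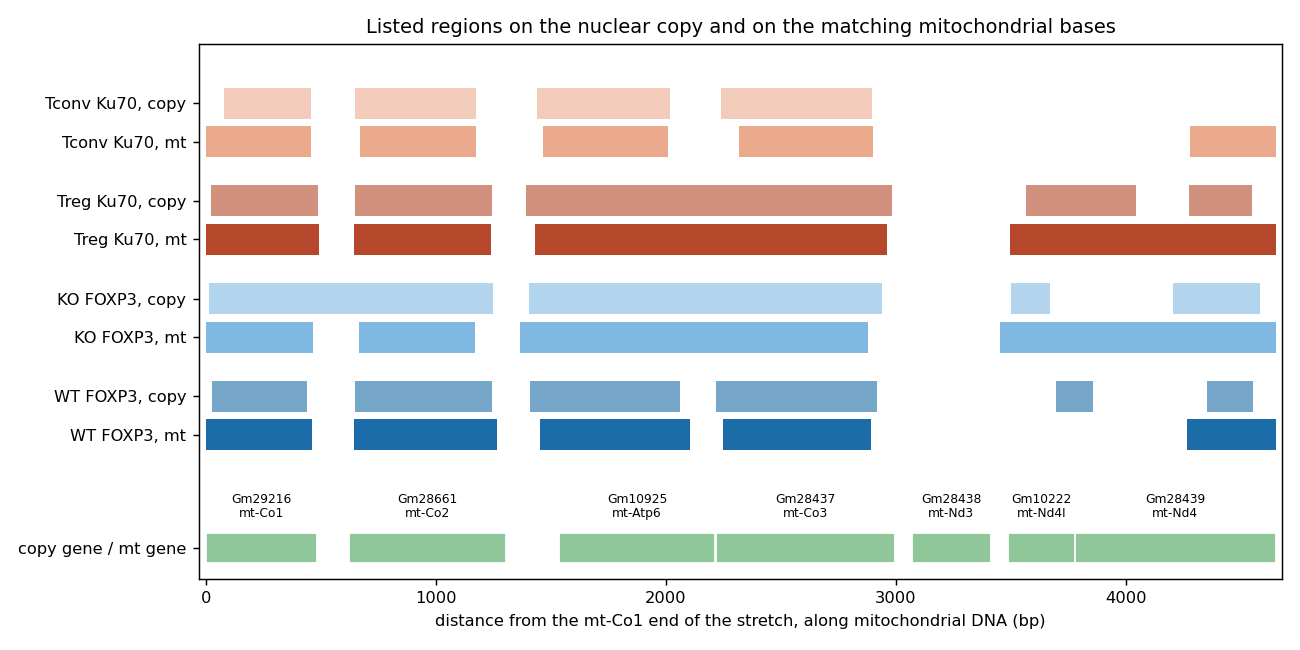
Listed regions on mitochondrial DNA (full colour) and on the chromosome 1 copy (paler), with the copy laid along the matching mitochondrial bases in bp from its mt-Co1 end. In each list the paired tracks break near the same places up to mt-Co3 and leave mt-Nd3 empty, except that the KO FOXP3 copy has no break between Gm29216 and Gm28661.

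Base by base, the copy's regions lay mostly where its source was also covered. Of the copy's covered bases that could be matched, 2470 of 2734 (90.3%) were also covered on mitochondrial DNA in the WT FOXP3 list, 2984 of 3316 (89.99%) in the KO FOXP3 list, 3341 of 3408 (98.0%) in the Treg Ku70 list and 2005 of 2147 (93.4%) in the Tconv Ku70 list. As shares of the source's covered bases in the same stretch the overlaps were 89.0%, 80.9%, 88.5% and 81.4%. The source itself was covered over 59.6%, 79.3%, 81.1% and 52.9% of the stretch, against which these shares are to be read. For summits, distances were measured instead, which depend on how many summits a list holds (21, 32, 36 and 19 on mitochondrial DNA). The median distance from a copy summit to the nearest mitochondrial summit of the same list was 168, 47, 74 and 84 bp, and 2 of 11, 6 of 11, 6 of 12 and 1 of 7 copy summits lay within 50 bp of one.

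Other nuclear stretches that resemble mitochondrial DNA held no listed region. Of 134 further alignments to assembled chromosomes, 4 were at least 500 bases long with at least 90% identity, and none of the 134 overlapped a region in any list. The 134 sum to 55399 bases. Regions covered 0.0113% of nuclear bases outside the copy in WT FOXP3, 0.00349% in KO FOXP3, 0.0356% in Treg Ku70 and 0.0123% in Tconv Ku70. At such shares a stretch of that length would seldom hold a region, so nothing is read from their absence. The longest, at chr2:22587288-22590534, spans the end of mt-Nd2 and the whole of mt-Co1 and mt-Co2, with 97.4% identity over 3260 aligned bases. Another at chr4:80002330-80005200 (93.0%) matches mt-Nd5, mt-Nd6 and mt-Cytb, and one at chr13:85126562-85127515 (95.2%) matches mt-Nd5. Only 3.39% of the 150-base windows of the chromosome 2 stretch occurred unaltered on mitochondrial DNA and 0% of those of the other 3, against 93.4% in the chromosome 1 copy. Over all 134, 2 held any such window, 198 windows in all, whereas the copy held 4209. Whether its regions came from reads of mitochondrial origin was not tested, since the reads were not analysed here.

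Covered mitochondrial bases were richer in G and C than uncovered ones in each list. GC content was 38.8% against 35.3% in the WT FOXP3 list, 38.1% against 35.1% in the KO FOXP3 list, 37.7% against 34.3% in the Treg Ku70 list and 38.4% against 35.8% in the Tconv Ku70 list. Within protein genes alone the differences were 3.55, 3.63, 4.77 and 2.18 percentage points, in the same order. Among the members GC content was highest in mt-Co1 (39.9%), mt-Cytb (39.1%), mt-Co3 (38.9%) and mt-Co2 (38.6%) and lowest in mt-Nd4 (35.6%) and mt-Nd2 (35.7%), while tRNA bases stood at 34.2% and mt-Nd3 at 33.0%. The member of highest GC content, mt-Co1, also had the highest fold of the mitochondrial members in each list. Outside the members, mt-Atp8 had the lowest GC content of the protein and rRNA genes (31.9%). It held a region in all 4 lists, each shared with mt-Atp6, whose start it overlaps. mt-Nd4l (41.1%) and mt-Nd5 (37.1%) had regions in 2 lists only, and the control region (36.8%) had none. The part of GC content in the coverage was not tested.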

How the data were processed

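FOXP3 and Ku70 ChIP-Seq libraries were paired-end, 150 bp. According to the study's methods and labels, the authors checked reads with FastQC, trimmed them with Trim Galore, mapped them to mm10 with Bowtie2 at default settings, removed duplicates with Picard (GATK) and called regions with MACS2 on pooled replicates against input, at p 0.05 without a shifting model. Versions are not given in the sources used here, nor is a filter on mapping quality or on mitochondrial reads. The deposited lists give, per summit, the fold enrichment (ratio) over the estimated background, the −log10 p-value and −log10 q-value, a score and the summit offset. The deposited score was the whole part of 10 times the −log10 p-value and was not analysed further.

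Rows with the same interval were joined into 1 region that kept its highest values. Samples were grouped by their labels. A base was covered when inside a region, and a gene's fold was that of its highest summit. Mitochondrial DNA was aligned to assembled chromosomes of GRCm38.p6 with BLAST 2.17.0 (blastn, e-value at most 1e-10). The interval steps and the reading of an alignment's differences were tested on simulated data, and the alignment search itself was not. The members and lists were chosen with earlier results of these data known. All members were named, the other mitochondrial genes were described as groups, and up to 3 of the other nuclear stretches were named. No test was made. Depth was not analysed here. Python 3.11.15, numpy 2.4.6, scipy 1.17.1 and matplotlib 3.10.9 were used.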

Additional observations from a re-analysis of the deposited data

How the results depend on the processing

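Values are given for WT FOXP3, KO FOXP3, then Treg Ku70 and Tconv Ku70. With regions reduced to 70 bases on either side of each summit, mitochondrial coverage was 18.2%, 27.2%, 31.0% and 16.4%. The share of the copy's covered bases also covered on mitochondrial DNA was then 29.7%, 50.3%, 43.1% and 37.99%. Because mitochondrial coverage fell as well, these shares cannot be set directly against those of whole regions. With regions of a −log10 q of at least 2 alone, mitochondrial coverage was 13.1%, 25.5%, 41.6% and 9.17%, the mitochondrial members with a region numbered 2, 3, 6 and 1, and the regions in the copy 0, 1, 3 and 0. Under these settings, chosen after seeing the data, protein genes were covered over 26.1%, 38.9%, 37.3% and 23.6% (summits) and 18.8%, 36.4%, 56.7% and 13.2% (q), and tRNA genes over 0%, 1.95%, 8.39% and 0% and over 0%, 2.21%, 20.9% and 0%. Windows of 100 and 50 bases of the copy occurred on mitochondrial DNA in 95.7% and 97.9%. The GC difference in Treg Ku70 fell to 2.32 percentage points with summits and stayed positive in each list. Taking the strongest summit of any overlapping region changed 3 of 40 fold values, by at most 1.20 times. Ranking summits by −log10 p, chosen after seeing the data, moved the range of strongest summits from 970 to 264 bases at mt-Co1 and from 259 to 110 at Gm28437, and raised it from 453 to 662 at mt-Nd1 and from 171 to 246 at mt-Cytb. The counts with the copy widened by 1 kb, with regions wholly inside it, and of other nuclear stretches under both other limits did not move. No paired analysis was possible because the lists pool the replicates, which also prevented leaving a replicate out. Depth, absent from the lists, limits any comparison of extents.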

Other observations

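Some summits carried exactly the same pair of fold enrichment and −log10 p as summits elsewhere. In the Tconv Ku70 list 12 of 19 mitochondrial summits had the same pair as a summit outside mitochondrial DNA and the copy, against 1 of 21 in the WT FOXP3 list, 3 of 32 in the KO FOXP3 list and 5 of 36 in the Treg Ku70 list. The Tconv Ku70 summits of mt-Nd4 and mt-Cytb shared 1 such pair, with a fold of 3.88 and a −log10 p of 5.62, and Gm29216 in the copy had it too. Of the copy's summits, 1 of 11, 1 of 11, 0 of 12 and 2 of 7 had the same pair as a mitochondrial summit of their own list, for WT FOXP3, KO FOXP3, then Treg Ku70 and Tconv Ku70.

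In the Treg Ku70 list the mitochondrial regions reached furthest beyond protein genes. There 10 of 22 tRNA genes touched a region and 8 were covered whole, against 1, 2 and 0 touched in the WT FOXP3, KO FOXP3 and Tconv Ku70 lists. The 8 were mt-Tl1, mt-Ti, mt-Tq, mt-Tm, mt-Tn, mt-Tc, mt-Ty and mt-Te, and apart from mt-Te they lay in the stretch from mt-Rnr2 to mt-Co1. The tRNA genes at either end of mt-Nd3, mt-Tg and mt-Tr, held no Treg Ku70 region. In mt-Rnr2 that list had 5 summits, with a fold of at most 2.90 and a −log10 q of 0 at the strongest.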
